A study of Homo sapiens with 12 samples.

Results

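The response to aristolochic acid I (AAI) was followed in HK-2 cells with knockdown of POLR2A, as AAI-treated against vehicle-treated knockdown cells across all genes. These were 6 of the 12 bulk RNA sequencing libraries of the series, 3 in AAI and 3 in DMSO, taken by their titles. HK-2 is an established human line of kidney proximal tubule cells. The knockdown cells, called siB, carried 10 nM of a short interfering RNA against POLR2A, and received either 25 µM AAI or the vehicle DMSO for 24 hours. The siRNA was transfected as AAI was added, so that the knockdown was transient, partial and set in during the treatment. The treatment field of the labels reads DMSO for all 12 libraries, so groups rest on the titles, and the A and D of the table's column names were read as AAI and DMSO. The other 6 libraries came from cells with 10 nM of a scrambled siRNA (SCR), again 3 in AAI and 3 in DMSO, and enter below only to set the siB response beside theirs. Every gene of the table was eligible, and 14928 of 35238 passed the filter, a level of at least 1 CPM (reads scaled to a common library total) in at least 3 of the 6 siB libraries.

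AAI is a nephrotoxin of Aristolochia plants. Cells reduce its nitro group, and the product forms bulky adducts on the purines of DNA, which block RNA polymerase II on transcribed strands and stall replication forks. The enzyme's largest subunit, RPB1, is the product of POLR2A and carries the active site. A polymerase that stalls at a bulky adduct calls in transcription-coupled repair, and can itself be ubiquitylated and degraded. Proximal tubule cells take up AAI through organic anion transporters and are its main target in the kidney.

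The siB libraries held 15844015 (AAI replicate 1) to 23393576 reads (DMSO replicate 1), and 0 reads allow a level of up to 0.189 CPM in the shallowest of them. POLR2A stood at 138, 143 and 139 CPM in the siB DMSO libraries, under the 284 ± 24.2 CPM (SD, n = 3) of SCR DMSO cells, and at 266, 220.4 and 210.3 CPM in the siB AAI libraries. With AAI more genes were detected, 21555 to 22764 above 0 against 18983 to 20057 with DMSO, although AAI replicate 1 was the shallowest library. The transcripts of the mitochondrial genome took 41167 to 50076 CPM with AAI and 32482 to 36450 CPM with DMSO, and 1 transcript, AC010970.2, varied between 8262 and 64098 CPM within the AAI group. The part of depth, of mitochondrial reads and of AC010970.2 in the results was not tested. Within each group replicate 1 stood furthest from the others, with a chi-square per degree of freedom of 47.3 and 53.8 against DMSO replicates 3 and 2, which differed by 4.38, and of 35.8 and 77.0 against AAI replicates 3 and 2, which differed by 28.5. No pair of replicates was as close as counting error alone would give. Of 19 proximal tubule markers, 10 had a mean of at least 1 CPM in siB DMSO cells, and all 19 together summed to 989 to 1133 CPM with DMSO and 775 to 856 CPM with AAI. The endocytic receptors LRP2 and CUBN, the water channel AQP1 and the regulator HNF4A lay under 1 CPM with DMSO, CUBN standing at 0.947, 2.26 and 1.82 CPM with AAI, and the organic anion transporters SLC22A6 and SLC22A8 were at 3 reads or fewer in all 6 libraries. Markers of the loop and distal tubule summed to 0.390 to 0.902 CPM with DMSO and 7.34 to 8.90 CPM with AAI, with UMOD and PVALB at 0 in all 6 libraries. Collecting duct markers went from sums of 0.983 to 1.67 CPM to sums of 4.20 to 4.93 CPM. Endothelial markers went from 1.39 to 1.94 CPM to 3.75 to 5.62 CPM, with KDR at 0 throughout. Podocyte markers summed to 104 to 122 CPM with DMSO and 29.8 to 59.8 CPM with AAI, nearly all of it SYNPO, and fibroblast markers to 33.0 to 35.9 and 12.1 to 23.2 CPM. COL1A1 made up most of the fibroblast sum with DMSO, and with AAI it stood at 19.8, 6.92 and 9.54 CPM beside DCN at 0.947, 3.74 and 4.88 CPM. Immune markers summed to 67.5 to 84.8 CPM with DMSO and 68 to 75.3 CPM with AAI, nearly all of it CD68, with CD3E at 0. SLC12A3, PECAM1 and PTPRC were the raised genes among these markers of other cell types. The part of other cell types in the results was not tested. In bulk RNA, fewer cells of a kind and less RNA per cell cannot be told apart.

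AAI changed the siB cells widely and raised more genes than it lowered. A gene was called raised or lowered where its Benjamini-Hochberg adjusted p in limma was under 0.05 and its level changed at least 2-fold. By this rule 2080 of 14928 genes (13.9%) were raised and 864 (5.79%) were lowered, and without the fold limit 30.4% were higher and 21.8% were lower. The median log2 fold change of all tested genes was 0.10, and -0.02 after rescaling by median-ratio size factors, which left 1863 raised and 1116 lowered genes. The raised share of all called genes was thus 70.7%, or 62.5% with size factors. Without AAI replicate 1, 2 or 3 the raised genes numbered 965, 1185 and 1210, since genes that passed the filter only through 3 AAI libraries were no longer tested, and 1887, 2179 and 2229 with the tested genes held the same. The rises were also the larger changes. There were 575 raised genes past a log2 fold change of 2 and 165 past 3, against 52 and 0 lowered genes past -2 and -3. In 2062 of the raised and 862 of the lowered genes the libraries of both groups did not overlap, a property that the call itself favours. The share of all tested genes without overlap is not given here, so these counts are not separate evidence.

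Raised and lowered genes lay at different levels. Of 297 tested genes with a mean under 1 CPM over the 6 libraries, 44.1% were raised and 0.337% lowered, and of 3005 genes between 1 and 5 CPM, 35.5% were raised and 4.96% lowered. Between 5 and 20 CPM the shares were 14.8% and 8.68%. From 20 to 100 CPM they were 5.16% and 5.56%, and among the 2234 genes at 100 CPM or more 2.01% and 3.49%, so that the lowered share passed the raised one. The part of the filter in this was not tested. A gene near 0 with DMSO passed it only through its AAI libraries and so had to be higher there. Of the 326 genes at 3 reads or fewer in every siB DMSO library, 325 were raised. A gene near 0 with AAI likewise passed it only through its DMSO libraries and so had to be lower there. Without the filter 2214 genes were raised and 860 lowered. In total 1104 raised genes (53.1%) had a DMSO mean under 1 CPM. Among genes with a mean of at least 5 CPM, fitted by themselves, 882 were raised and 713 lowered.

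**Figure D1:**
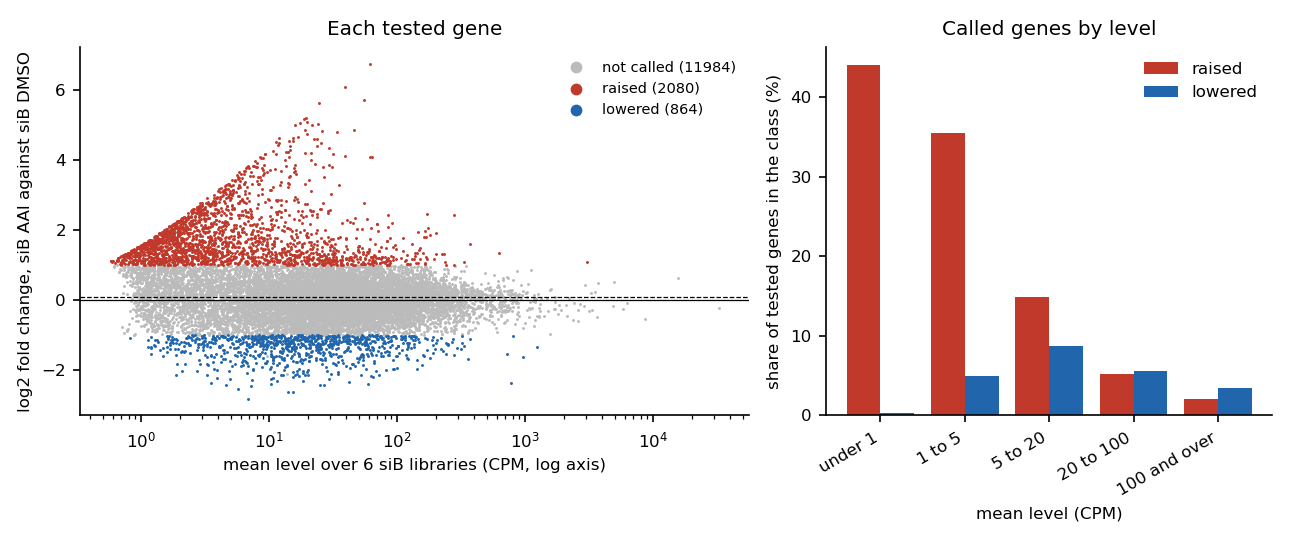
The left panel plots the log2 fold change of siB AAI against siB DMSO for each of the 14928 tested genes against its mean level over the 6 siB libraries in CPM on a log axis, with called genes in colour and a dashed line at the median of 0.10. The right panel gives the share of tested genes called raised or lowered in 5 classes of mean level, and shows the raised share falling from 44.1% to 2.01% as the level rises.

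The raised genes with the largest changes were near silent in vehicle-treated knockdown cells. CHD5, a chromatin remodeller that is mostly neuronal, went from 0.0855, 0.0902 and 0.167 CPM to 152, 94.6 and 118 CPM. ALPK3, a kinase-like gene of muscle, went from 0.138 ± 0.154 CPM to 78.3 ± 19.4 CPM, and CILP2, a cartilage protein gene, from 1.12 ± 0.440 to 108 ± 2.95 CPM. GP5, a platelet glycoprotein gene, FAM83E, EFCAB8 and LCT, the intestinal lactase gene, lay at 3 reads or fewer in each DMSO library and reached 49.2 ± 5.92, 38.5 ± 2.13, 37.7 ± 1.805 and 34.9 ± 3.73 CPM with AAI. FGF18, a growth factor (5.10), PYGM, the muscle glycogen phosphorylase (5.04), and MATN4, a matrix protein (5.01), completed the 10 largest rises on the log2 scale, where values depend on the pseudocount of 1 for genes near 0.

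Some raised genes began within 20 kb of the end of an expressed neighbour transcribed in the same direction. CHD5 (chromosome 1, 6101787 to 6180321, hg38) began 4699 bp past the end of RPL22, LCT (chromosome 2, 135787850 to 135837184) 2442 bp past the end of MCM6, FAM83E (chromosome 19, 48599961 to 48615076) 252 bp past the end of RPL18 and PYGM (chromosome 11, 64746389 to 64759974) 4632 bp past the end of SF1. Of the raised genes with a known span, 43.0% (811 of 1886) had a same-strand gene with a mean of at least 5 CPM ending within 20 kb before their start. The share was 21.2% for lowered genes, 22.6% for genes not called and 25.2% for all tested genes. These groups were not matched to the raised genes by level. Of the raised genes 53.1% had a DMSO mean under 1 CPM, and of the lowered genes 0 had. Only 1 gene near silent in every siB DMSO library was not called, so shares cannot be compared among such genes. The part of low level in the 43.0% was not tested. Whether the reads of raised genes started at their own promoters was not tested, since the table holds one value per gene. Spans had medians of 24.5 kb for raised, 23.0 kb for lowered and 32.0 kb for all tested genes. The sources used here do not give whether the counting used strand, and 66.9% of raised and 74.6% of lowered genes overlapped another annotated gene, against 71.8% of tested genes. Reads of such a gene and of a partner on the other strand cannot be told apart.

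The lowered genes included some of the most abundant transcripts of the line. SCD, the desaturase that makes oleic acid, stood at 1809, 1815 and 1673 CPM with DMSO and at 755, 619.9 and 710.4 CPM with AAI (log2 -1.35, SE 0.11, adjusted p 1.3e-05). EPAS1, the hypoxia-inducible factor HIF-2α, stood at 1432, 1473 and 1417 CPM with DMSO and at 438, 446 and 520.5 CPM with AAI (log2 -1.62, SE 0.10, adjusted p 3.6e-06). In both genes each AAI library lay far under each DMSO library. CYR61 (now CCN1), a target of the co-activator YAP, went from 1078 ± 33.6 to 372 ± 59.96 CPM, and the elongation factor EEF1A2 from 1073 ± 121 to 540 ± 149.6 CPM. Among the largest falls were those of less abundant genes, TRPT1, a tRNA phosphotransferase (-2.82), ZNF618, a zinc finger gene (-2.62), NYAP2 (-2.54), CSDC2 (-2.44) and PEX10, a peroxisome assembly gene (-2.44). The most abundant raised genes were MTRNR2L12, which shares its sequence with the mitochondrial 16S ribosomal RNA and is uncertain for that reason, EPHA2, an ephrin receptor (349 ± 26.8 to 902 ± 233 CPM), and TFRC, the transferrin receptor (206, 159.9 and 179 CPM with DMSO, 615, 499 and 547 CPM with AAI). ATP13A3, a polyamine transporter, and NBPF19, a member of a family of near-identical copies, followed. EEF1A2, MTRNR2L12 and ATP13A3 each lost the fold limit or the adjusted p when single libraries were left out.

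**Figure D2:**
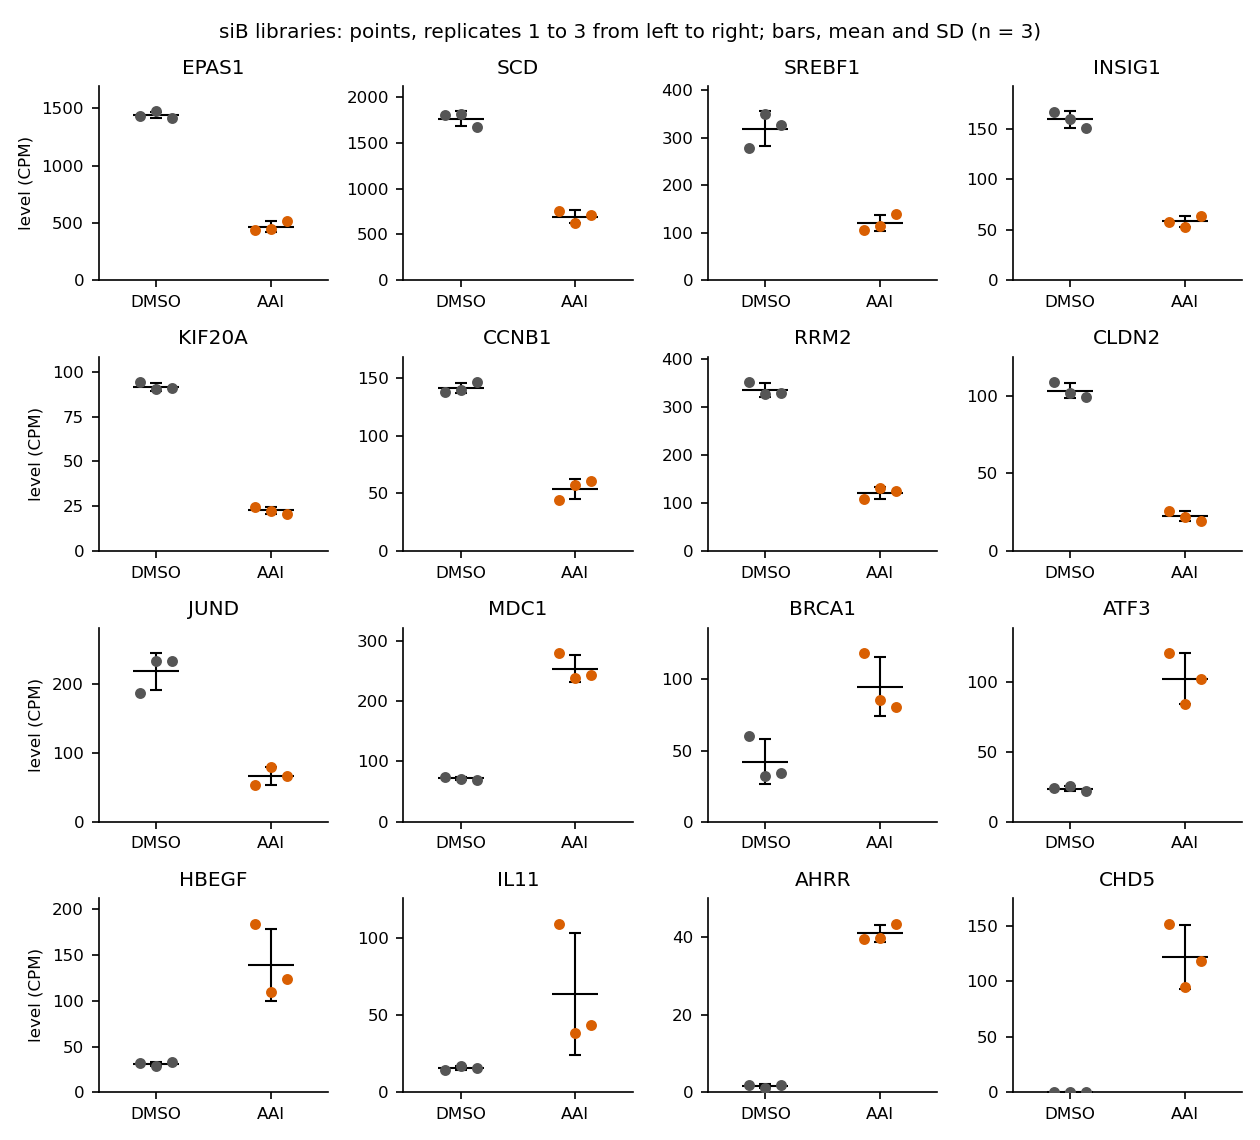
Levels of 16 genes in CPM in the 3 DMSO and 3 AAI libraries of siB cells are plotted as points, replicates 1 to 3 from left to right, with the mean and SD (n = 3) as bars and each vertical axis starting at 0. In all 16 panels the AAI points lie wholly above or wholly below the DMSO points, and in HBEGF and IL11 replicate 1 stands above the other AAI libraries.

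Few genes of the transcription machinery itself changed past the fold limit. Of 12 subunits of RNA polymerase II, 0 were raised and 1 was lowered, beside 13.9% and 5.79% of all tested genes. Without the fold limit 5 were higher and 3 lower, beside 30.4% and 21.8%. Their median of 0.03 turned to -0.09 under size factors. POLR2A changed by log2 0.72, SE 0.11, adjusted p 6.0e-04, a rise under the fold limit whose libraries did not overlap. The subunit POLR2L, shared by all nuclear polymerases, was lowered (-1.40), from 37.5 ± 4.12 to 13.7 ± 3.01 CPM. Among 31 elongation and pause release genes, 2 were raised and 1 lowered, and their median was 0.15. Without the fold limit 10 of them were higher and 4 lower, beside 30.4% and 21.8% of all tested genes. In the fit over all 4 groups the higher members became 2 for the subunits and 3 for the elongation genes. CCNT1, the cyclin of the pause release kinase P-TEFb, rose (51.3 ± 9.51 to 119 ± 10.1 CPM, 1.21), while the kinase CDK9 fell by less than the fold limit (-0.85). ELL2, an elongation factor of the super elongation complex, was raised by 1.13, and by 0.98 without siB DMSO replicate 3. NELFE, a subunit of the pausing factor NELF, stood at 78.3, 83.1 and 81.96 CPM with DMSO and 25.8, 25.1 and 28.5 CPM with AAI, a change of -1.58.

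Factors that end transcripts were raised at close to the background share. Of 35 genes of 3′ end processing and the Integrator complex, 5 were raised and 0 lowered, beside 13.9% and 5.79% of all tested genes. Without the fold limit 10 were higher and 8 lower, beside 30.4% and 21.8%. PCF11, which couples cleavage to termination, stood at 23.9, 14.1 and 16.0 CPM with DMSO and 76.8, 58.5 and 50.8 CPM with AAI (log2 1.74, SE 0.21, adjusted p 1.5e-04). The Integrator subunit INTS2 (16.0 ± 3.53 to 49.8 ± 5.24 CPM), the cleavage factor CSTF3 (26.6 ± 4.28 to 72.6 ± 3.20 CPM) and RBBP6 (1.31) were also raised. Among 33 splicing factors and CLK kinases 0 were called, and the median was 0.08, or -0.04 under size factors. Without the fold limit 13 of them were higher and 5 lower, beside 30.4% and 21.8% of all tested genes.

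Of 37 checkpoint, Fanconi anemia and recombination genes, 7 were raised and 1 lowered, beside 13.9% and 5.79% of all tested genes. Without the fold limit 17 were higher and 4 lower, beside 30.4% and 21.8%, and the median was 0.38 beside 0.10 over all tested genes. MDC1, the scaffold that binds phosphorylated H2A.X at breaks, stood at 74.8, 71.2 and 69.5 CPM with DMSO and at 279.8, 238 and 243 CPM with AAI (log2 1.8, SE 0.10, adjusted p 2.5e-06). The homologous recombination genes BRCA1 (60.3, 32.01 and 34.3 CPM with DMSO, 119, 85.6 and 80.8 CPM with AAI) and BRCA2 (22.01, 7.53 and 13.4 CPM, then 45.1, 32.4 and 27.01 CPM) and the fork protein CLSPN (1.27) were raised without overlap of the groups, and in each of the 3 genes replicate 1 was the highest library of both groups. They were not called in the fit over all 4 groups, where their adjusted p reached 0.110, 0.115 and 0.102. FANCM (1.11), RAD50 (1.10) and BRIP1 (1.04) were the other raised members. FANCF was lowered (11.4 ± 1.12 to 4.65 ± 0.734 CPM, -1.14). The 7 raised members became 3 to 10 when single libraries were left out, with 3 without siB DMSO replicate 2 and 4 without siB AAI replicate 1. They became 4 with size factors and 1 in the fit over all 4 groups, where the 17 higher members became 5.

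Nucleotide excision repair, the pathway that removes bulky adducts, gave few calls. Of its 29 genes, 1 was raised and 1 lowered, beside 13.9% and 5.79% of all tested genes. Without the fold limit 8 were higher and 6 lower, beside 30.4% and 21.8%. The raised gene was ERCC4, which encodes the incision nuclease XPF, at 7.65, 5.77 and 5.74 CPM with DMSO and 22.6, 21.2 and 15.5 CPM with AAI (log2 1.49, SE 0.19, adjusted p 2.0e-04). LIG3, the ligase that seals repaired nicks, was lowered from 33.4 ± 2.57 to 13.2 ± 1.05 CPM. UVSSA, a factor of transcription-coupled repair, rose by less than the fold limit (0.93), and the helicase gene ERCC2 fell by less than it (-0.80).

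Targets of p53 had lowered members and no raised ones. Of 28 tested targets 0 were raised and 5 lowered, beside 13.9% and 5.79% of all tested genes. Without the fold limit 3 were higher and 9 lower, beside 30.4% and 21.8%. The 9 lower members became 5 in the fit over all 4 groups, and 1 target was raised without siB DMSO replicate 1 or AAI replicate 2. The median of 0.03 became -0.09 under size factors. CDKN1A, which encodes the cell cycle inhibitor p21, stood at 257, 304 and 303 CPM with DMSO and 304, 259.7 and 299 CPM with AAI, and the groups overlapped. TP53I3 (19.1 ± 2.004 to 6.48 ± 2.35 CPM), TP53INP1 (33.5 ± 4.54 to 13.1 ± 5.04 CPM), the kinase PLK2 (358 ± 16.5 to 146 ± 13.4 CPM), the death gene BBC3, which encodes PUMA (13.7 ± 1.84 to 5.23 ± 2.02 CPM), and PHLDA3 (66.8 ± 5.53 to 30.5 ± 2.02 CPM) were lowered. PMAIP1, which encodes NOXA, rose by 0.98, just under the fold limit. Of 14 tested BCL2 family genes 0 were raised and 2 lowered, BBC3 and BOK (122 ± 17.02 to 43.8 ± 2.88 CPM). Without the fold limit 7 were lower, beside 21.8% of all tested genes. Both death genes (BBC3, BOK) and survival genes (BCL2 with -0.67, MCL1 with -0.38) were among these.

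Of 32 mitosis genes, 0 were raised and 7 lowered, beside 5.79% of all tested genes, and 0 were higher and 15 lower without the fold limit, beside 30.4% and 21.8%. The members higher without the fold limit became 6 without siB DMSO replicate 1, where 1 was raised, and 4 with the replicate number as a block. The kinesin KIF20A stood at 94.3, 90.2 and 90.9 CPM with DMSO and 24.7, 22.6 and 20.9 CPM with AAI (log2 -1.97, SE 0.11, adjusted p 2.6e-06). Cyclin B1, CCNB1, stood at 138, 139.6 and 147 and 44.4, 57.0 and 60.9 CPM, and the phosphatase CDC25B, which activates its kinase, at 229, 246 and 259 and 87.8, 71.6 and 82.9 CPM. For these genes each AAI library was under each DMSO library by more than the spread of either group. The mitotic kinases AURKA (-1.32) and PLK1 (-1.31), CCNB2 (-1.24) and CDC20, the activator of the anaphase-promoting complex (-1.21), were the other lowered members. The median of the group was -0.28 (-0.40 under size factors), and 7 or 8 members were lowered under every alternative tried.

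Mitotic and replication genes are known for different promoter elements, a cell cycle homology region with CCAAT boxes for the first and E2F sites for the second, and the sequences of genes from both groups are shown for that reason. Promoters were taken from RefSeq on GRCh38.p14, from 250 bases before to 50 after the start, and were found for 26 of the 32 mitosis and 31 of the 38 S phase genes. Capitals mark TTTGAA, the cell cycle homology region, and CCAAT in PLK1, CDC20 and CCNB1, and TTTGGCGC in E2F1, on either strand. The windows are chr16:23678639-23678938 (plus strand) for PLK1, chr1:43358731-43359030 (plus) for CDC20, chr5:69166900-69167199 (plus) for CCNB1 and chr20:33686336-33686635 (minus) for E2F1.
PLK1: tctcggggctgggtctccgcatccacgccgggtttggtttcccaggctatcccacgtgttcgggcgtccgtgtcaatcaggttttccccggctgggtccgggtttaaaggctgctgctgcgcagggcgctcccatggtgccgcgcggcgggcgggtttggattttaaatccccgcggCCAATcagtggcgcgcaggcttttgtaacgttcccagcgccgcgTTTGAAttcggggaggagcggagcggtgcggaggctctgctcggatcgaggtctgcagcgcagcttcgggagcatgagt
CDC20: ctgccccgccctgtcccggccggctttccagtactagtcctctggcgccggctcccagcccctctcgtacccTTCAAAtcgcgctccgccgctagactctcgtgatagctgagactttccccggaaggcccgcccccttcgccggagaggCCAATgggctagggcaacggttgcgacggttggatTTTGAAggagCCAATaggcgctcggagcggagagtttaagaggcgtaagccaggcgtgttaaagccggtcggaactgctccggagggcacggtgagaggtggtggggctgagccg
CCNB1: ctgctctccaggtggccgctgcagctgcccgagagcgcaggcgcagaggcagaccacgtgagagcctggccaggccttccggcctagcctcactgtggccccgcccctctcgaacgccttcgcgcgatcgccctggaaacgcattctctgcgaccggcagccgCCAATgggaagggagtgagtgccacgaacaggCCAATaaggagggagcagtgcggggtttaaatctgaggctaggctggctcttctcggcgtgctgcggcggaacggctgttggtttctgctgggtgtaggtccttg
E2F1: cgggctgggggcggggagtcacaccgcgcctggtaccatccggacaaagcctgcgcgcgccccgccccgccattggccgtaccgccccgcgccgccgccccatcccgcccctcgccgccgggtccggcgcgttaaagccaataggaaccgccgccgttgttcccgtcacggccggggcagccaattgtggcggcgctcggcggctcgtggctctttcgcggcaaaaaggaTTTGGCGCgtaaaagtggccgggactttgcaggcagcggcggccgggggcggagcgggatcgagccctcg

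TTTGAA occurred in 61.5% of the mitosis promoters, 6.45% of the S phase promoters and 15.4% of all 27305 promoters of the table. CCAAT occurred in 76.9%, 61.3% and 35.7% of them. The E2F site, searched as TTTCGCGC or TTTGGCGC on both strands, occurred in 7.69% of the mitosis, 32.3% of the S phase and 1.18% of all promoters. CCNB1, KIF20A and CDC25B, lowered like PLK1 and CDC20, held no TTTGAA in this window, and CDC25B held no CCAAT either. A match describes the letters only. For the raised and lowered genes as a whole under 80% had a promoter in the table, so that no motif share is given for them.

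Of 38 S phase genes, 3 were raised and 1 lowered, beside 13.9% and 5.79% of all tested genes. Without the fold limit 14 were higher and 5 lower, or 8 and 10 with size factors and 5 higher in the fit over all 4 groups, beside 30.4% and 21.8%. The higher members became 8 without siB DMSO replicate 2 or 3 and 9 without AAI replicate 3, and the lower ones 8 without siB DMSO replicate 1. Their median of 0.05 became -0.07 under size factors. The origin recognition gene ORC6 (67.5, 53.6 and 57.5 CPM with DMSO, 153, 119.8 and 135 CPM with AAI), the replication factor MCM10 (23.9 ± 3.79 to 49.8 ± 1.02 CPM) and the transcription factor E2F1 (160.1 ± 16.1 to 321 ± 17.4 CPM) were raised. MCM10 (0.92) and E2F1 (0.88) lay under the fold limit after size-factor rescaling. RRM2, the inducible subunit of ribonucleotide reductase, was lowered from 353, 327 and 329 CPM to 108, 132 and 125 CPM (log2 -1.46, SE 0.11, adjusted p 8.3e-06). Inhibitors of cyclin-dependent kinases went different ways. CDKN3, a phosphatase (35.99 ± 3.08 to 12.2 ± 0.199 CPM), and CDKN1C, which encodes p57 (70.9 ± 13.9 to 31.2 ± 2.53 CPM), were lowered, and CDKN2B, which encodes p15, was raised (18.3, 16.1 and 13.4 CPM, then 53.1, 23.9 and 29.9 CPM), with replicate 1 the highest AAI library. Without that library CDKN2B changed by 0.72 and was not called.

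Clustered histone genes had raised members and no lowered ones. The deposited table named 89 such genes. Of the 34 tested, 9 were raised, 0 lowered and 20 higher without the fold limit, beside 13.9% raised and 30.4% higher of all tested genes, with a median of 0.70 (0.63 under size factors). The 9 raised members became 5 among genes with a mean of at least 5 CPM and 14 with voom, and the 20 higher ones 9 among the former, 10 in the fit over all 4 groups and 13 without AAI replicate 2. Most lay at a few CPM. HIST1H2BK went from 8.42 ± 1.61 to 20.9 ± 4.88 CPM, HIST1H2BN from 2.22 ± 0.7097 to 9.08 ± 2.43 CPM, HIST1H4I from 3.89 ± 0.664 to 12.2 ± 2.18 CPM and HIST2H2AA4 from 8.63 ± 2.54 to 20.4 ± 5.88 CPM. Replication-dependent histone mRNAs end in a stem-loop in place of a poly(A) tail, and these libraries were made from poly(A) RNA. Near-identical copies share reads in this family, HIST2H3A and HIST2H3C having the same values, so single members are uncertain. Passing the filter needed 1 CPM in 3 libraries, which a gene could meet through its AAI libraries alone.

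Early response genes split between their members. Of 29 tested, 5 were raised and 2 lowered, beside 13.9% and 5.79% of all tested genes. ATF3, a stress-induced repressor of transcription, stood at 23.9, 25.2 and 21.9 CPM with DMSO and 121, 83.99 and 102 CPM with AAI (log2 2.05, SE 0.15, adjusted p 7.7e-06). The AP-1 genes FOSB (14.6, 17.6 and 13.99 CPM, then 48.4, 58.98 and 62.3 CPM) and FOS (3.52 ± 0.649 to 12.2 ± 1.45 CPM) were raised. Their partner JUND was lowered, from 187, 234 and 234 CPM to 52.8, 78.96 and 66.6 CPM (log2 -1.72, SE 0.16, adjusted p 3.0e-05), and MYC, the growth regulator, from 265, 301 and 281 CPM to 93.6, 131 and 144 CPM (log2 -1.21, SE 0.15, adjusted p 2.0e-04). KLF6, the factor the study followed as an injury gene, stood at 194, 162 and 146 CPM with DMSO and 79.02, 129 and 114 CPM with AAI, a fall of less than the fold limit (log2 -0.65, SE 0.18, adjusted p 0.0132), and its adjusted p was 0.0609 with all 4 groups fitted together. All 3 AAI libraries lay under all 3 DMSO libraries for JUND, MYC and KLF6.

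Inflammatory genes showed no common direction. Of 21 tested cytokines and NF-κB targets, 3 were raised and 2 lowered, beside 13.9% and 5.79% of all tested genes. CXCL1, CCL2, IL1A, IL1B, TNF and PTGS2 were under 1 CPM in all 6 libraries and were not tested. IL11, a cytokine of the IL-6 family linked to tubular injury and fibrosis, was raised (log2 1.77, SE 0.33, adjusted p 0.00161), at 14.8, 17.4 and 15.7 CPM with DMSO and 109, 38.6 and 43.8 CPM with AAI, with replicate 1 far above the others. IL6 itself stood at 13.8, 16.2 and 17.1 CPM with DMSO and 2.71, 22.9 and 21.7 CPM with AAI, where replicate 1 was the lowest and the others lay above the DMSO libraries, and it was not called (log2 -0.40, SE 0.59, adjusted p 0.595). Without that library its change was 0.49 (adjusted p 0.0248). The kinase IRAK2 (14.1 ± 0.436 to 35.4 ± 1.41 CPM) and the chemokine CXCL5 (3.45 ± 0.653 to 8.01 ± 0.419 CPM) were raised, CXCL5 falling under the fold limit with size factors (0.93). IL18 was lowered from 59.2, 55.1 and 56.6 CPM to 17.4, 15.2 and 17.7 CPM (log2 -1.71, SE 0.12, adjusted p 7.9e-06), and the membrane-bound chemokine CX3CL1 from 47.6 ± 2.21 to 22.5 ± 2.01 CPM. CXCL8 rose by less than the fold limit (119 ± 7.01 to 208 ± 11.9 CPM, 0.80).

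Interferon response genes also divided. Of 30 tested, 4 were raised and 2 lowered, close to the 13.9% and 5.79% of all tested genes. Without the fold limit 5 were higher and 10 lower, beside 30.4% and 21.8%, and the median was -0.23. IFI35 was lowered, from 20.6 ± 2.23 to 5.57 ± 0.929 CPM. The exonuclease ISG20 (1.88, 2.35 and 2.397 CPM, then 18.6, 11.6 and 11.3 CPM), IFI27 (1.85 ± 0.765 to 8.62 ± 3.197 CPM) and MX2 (4.49 ± 0.494 to 11.98 ± 1.81 CPM) were raised from a few CPM. OAS2 was raised from under 1 CPM (0.317 ± 0.177 to 2.53 ± 0.926 CPM), and passed the filter only through its AAI libraries. The transcription factors STAT2 (-0.32) and IRF7 (-0.69) fell by less than the fold limit.

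Signals of growth were lowered in part. Of 21 targets and partners of YAP, 0 were raised and 5 lowered, beside 13.9% and 5.79% of all tested genes, and without the fold limit 1 was higher and 10 were lower, beside 30.4% and 21.8%. ANKRD1 went from 62.9 ± 5.78 to 16.6 ± 4.60 CPM, the DNA-binding partner TEAD2 from 43.3 ± 3.56 to 14.9 ± 0.554 CPM, tissue factor F3 from 37.9 ± 1.69 to 16.7 ± 0.353 CPM and the kinase NUAK2 from 172 ± 16.2 to 83.4 ± 5.203 CPM, beside CYR61. CTGF (now CCN2), a fibrosis gene of the same family as CYR61, fell within the fold limit, from 176, 187 and 175 CPM to 145, 105 and 120 CPM (-0.55), and its adjusted p was 0.0587 with all 4 groups fitted together. Among 10 tested genes of the EGF receptor family, HBEGF, a ligand, was raised from 31.9, 29.1 and 33.01 CPM to 184, 109 and 124 CPM (log2 2.08, SE 0.18, adjusted p 2.2e-05), and EREG, another ligand, stood at 58.6, 41.8 and 44.05 CPM and 54.3, 154 and 139 CPM with overlap, since AAI replicate 1 lay among the DMSO libraries. EREG was not called in the fit over all 4 groups (adjusted p 0.161) or without DMSO replicate 3 or AAI replicate 2 or 3. EGF itself was lowered (5.59 ± 1.36 to 2.20 ± 0.406 CPM) and the receptor EGFR fell by less than the fold limit (-0.44).

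The TGF-β pathway had 0 raised and 3 lowered members of 25, with 11 lower and 4 higher without the fold limit, beside 5.79% lowered and 21.8% lower of all tested genes. The 11 lower members became 5 in the fit over all 4 groups. The lowered ones were the ligand TGFB2 (174 ± 51.1 to 75.7 ± 29.7 CPM), the inhibitor SMAD6 (21.2 ± 3.15 to 8.41 ± 1.42 CPM) and the target ID3 (6.01 ± 1.27 to 2.46 ± 0.379 CPM). TGFB2 was not called in the fit over all 4 groups (adjusted p 0.0776), and lay under the fold limit without DMSO replicate 1. Of 34 extracellular matrix genes 1 was raised and 2 lowered, beside 13.9% and 5.79% of all tested genes. Without the fold limit 5 were higher and 10 lower, beside 30.4% and 21.8%. The 10 became 3 in the fit over all 4 groups, 6 without a filter, and 5 without DMSO replicate 2 or 3 or AAI replicate 2 or 3, and 4 members were lowered without AAI replicate 1. The collagen chains COL4A5 (14.9 ± 3.15 to 3.84 ± 2.12 CPM) and COL1A1 (27.9, 30.98 and 31.2 CPM, then 19.8, 6.92 and 9.54 CPM) were lowered, and fibronectin, FN1, fell by less than the fold limit (10130.0 ± 513 to 7093 ± 1744 CPM). VIM, the dedifferentiation marker vimentin, stood at 1125, 1266 and 1242 CPM with DMSO and 620.2, 699 and 785 CPM with AAI, a log2 change of -0.79 that was also within the limit.

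Of 36 epithelial junction and keratin genes, 0 were raised and 6 lowered, beside 13.9% and 5.79% of all tested genes. Without the fold limit 0 were higher and 20 lower, beside 30.4% and 21.8%, with a median of -0.45. The higher members became 4 with the replicate number as a block, 3 without siB DMSO replicate 1 and 1 without AAI replicate 1, and the 20 lower ones 9 in the fit over all 4 groups. CLDN2, the claudin of the leaky proximal tubule junction, stood at 109, 102 and 99.3 CPM with DMSO and 26.0, 21.9 and 19.4 CPM with AAI (log2 -2.17, SE 0.13, adjusted p 3.3e-06). Claudin 4, CLDN4, which seals tighter segments, stood at 160.5, 187 and 181 and 61.7, 56.1 and 59.6 CPM, and keratin 19, KRT19, at 247, 279.9 and 291 and 62.4, 97.2 and 102 CPM. In each the groups lay apart by far more than the spread within either. JUP, which encodes plakoglobin of desmosomes (153 ± 13.5 to 53.99 ± 13.1 CPM), the scaffold MAGI1 (18.96 ± 4.79 to 5.64 ± 2.25 CPM) and PKP2, a desmosomal plaque gene (21.6 ± 3.49 to 9.52 ± 0.783 CPM), were the other lowered members. The list was drawn up with earlier results of these data known, so the direction of the group is not independent evidence. Of 29 integrin and focal adhesion genes 0 were raised and 4 lowered, beside 13.9% and 5.79% of all tested genes. Without the fold limit 0 were higher and 11 lower, beside 30.4% and 21.8%. The higher ones became 2 with the block and 3 without siB DMSO replicate 1, and the 11 lower ones 7 without AAI replicate 2. The lowered ones were talin 2, TLN2 (38.2 ± 1.78 to 11.8 ± 4.01 CPM), the tensins TNS1 (-1.22) and TNS3 (-1.11), and the integrin ITGB6 (-1.09), which was not called in the fit over all 4 groups (adjusted p 0.181), without a filter, or without DMSO replicate 1 or AAI replicate 2 or 3.

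Some genes of tubule identity and some of tubule injury were lowered side by side. Of 26 proximal tubule genes 17 were tested, and 4 were raised and 3 lowered, beside 13.9% and 5.79% of all tested genes. GATM, which makes the creatine precursor guanidinoacetate (17.2 ± 2.45 to 7.11 ± 0.8899 CPM), and the cadherin CDH6 (364 ± 85.4 to 181 ± 92.99 CPM) were lowered, and PAX8 fell by less than the fold limit (-0.58). CDH6 was not called in the fit over all 4 groups (adjusted p 0.106), or without DMSO replicate 1 or AAI replicate 2 or 3. The glucose transporter SLC5A2 was raised from 3.98, 4.28 and 7.08 CPM to 20.1, 12.1 and 18.2 CPM, and the other raised members, SLC5A1, SLC13A3 and ANPEP, were near 0 with DMSO and reached 3.99 ± 0.902, 2.25 ± 0.425 and 3.08 ± 0.984 CPM, the kind of gene that the filter admits only when it rises. Of 19 injury and dedifferentiation genes 1 was raised and 4 lowered, beside 13.9% and 5.79% of all tested genes. Without the fold limit 3 were higher and 9 lower, beside 30.4% and 21.8%. SOX4, a progenitor factor, stood at 149, 132 and 116 CPM with DMSO and 40.96, 26.1 and 30.6 CPM with AAI (log2 -2.01, SE 0.17, adjusted p 1.9e-05), CD24, a surface marker of scattered tubular cells, at 391.8, 347 and 345 and 129, 123 and 120.3 CPM, and HAVCR1, which encodes the injury marker KIM-1, at 169, 137 and 132 and 64.8, 59.9 and 50.2 CPM. All 3 were lower in every AAI library. VCAM1 was lowered at a low level (3.504 ± 1.43 to 1.17 ± 0.558 CPM), and the raised gene was PROM1 (0.153 ± 0.0905 to 5.08 ± 0.767 CPM).

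Of 12 tested genes of the aryl hydrocarbon receptor and AAI metabolism, 1 was raised and 0 lowered, beside 13.9% and 5.79% of all tested genes. The raised gene was AHRR, the repressor that the receptor induces against itself, which stood at 1.92, 1.08 and 1.896 CPM with DMSO and at 39.6, 39.9 and 43.6 CPM with AAI (log2 4.01, SE 0.18, adjusted p 6.9e-07). Without the fold limit 2 of the 12 were higher and 3 lower, beside 30.4% and 21.8%. Among other targets of the receptor CYP1B1 stood at 34.8 ± 11.96 and 26.1 ± 12.4 CPM (adjusted p 0.291), TIPARP fell by less than the fold limit (49.7 ± 7.28 to 30.4 ± 6.19 CPM, -0.70), and 3 were under the filter and not tested. Of these CYP1A1 had a mean of 0.351 CPM with DMSO and 1.64 CPM with AAI, ALDH3A1 stood at 0 in the DMSO libraries and at 0.757, 0.415 and 0.75 CPM with AAI, and UGT1A6 at 0.342, 0.135 and 0 CPM and then 0.442, 0.554 and 0.429 CPM. The AAI libraries of ALDH3A1 and UGT1A6 lay above their DMSO libraries. AHRR (chromosome 5, 321714 to 438291) began 6740 bp past the end of PDCD6 on the same strand and overlapped 3 other annotated genes.

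Targets of NRF2, a transcription factor of the response to oxidants, had 1 raised and 1 lowered member of 26. Without the fold limit 4 were higher and 6 lower, beside 30.4% and 21.8% of all tested genes. The lower members became 3 in the fit over all 4 groups, and the higher ones 1 with size factors. The transporter ABCC2, which exports conjugates into the urine, was raised from 1.58, 1.04 and 1.11 CPM to 21.2, 18.3 and 20.9 CPM (log2 3.24, SE 0.17, adjusted p 1.6e-06). Heme oxygenase, HMOX1, was lowered (41.7, 48.8 and 53.4 CPM, then 9.97, 21.9 and 24.7 CPM), and was not called in the fit over all 4 groups (adjusted p 0.0502). The autophagy receptor SQSTM1 (-0.66) fell by less than the fold limit.

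Stress pathways of protein folding gave mixed counts. Of 32 genes of the unfolded protein and integrated stress response, 3 were raised and 3 lowered, beside 13.9% and 5.79% of all tested genes. Without the fold limit 8 were higher and 13 lower, beside 30.4% and 21.8%. The sensors of the endoplasmic reticulum ERN1, which encodes IRE1α (9.45, 10.7 and 8.64 CPM, then 21.3, 24.8 and 26.7 CPM), and EIF2AK3, which encodes PERK (23.5 ± 4.95 to 49.6 ± 8.14 CPM), were raised beside ATF3, EIF2AK3 with 0.93 under size factors. The inhibitor of mTOR signalling DDIT4 was lowered from 102, 120.3 and 111 CPM to 20.9, 27.5 and 31.4 CPM (log2 -2.04, SE 0.15, adjusted p 1.0e-05), and the pseudokinase TRIB3 from 232, 302 and 305 CPM to 60.1, 130.4 and 113 CPM (log2 -1.52, SE 0.25, adjusted p 8.9e-04). The lipoprotein receptor VLDLR was the third lowered member (117 ± 10.6 to 37.9 ± 5.59 CPM), and the chaperone HSPA5, known as BiP, fell by less than the fold limit (522 ± 52.7 to 297 ± 10.2 CPM). Of 23 cytosolic chaperone genes 2 were raised and 0 lowered, and without the fold limit 12 were higher and 3 lower, beside 30.4% and 21.8% of all tested genes. The 12 became 8 with size factors and 4 in the fit over all 4 groups. HSPH1 (122, 66.2 and 82.3 CPM, then 267, 202 and 209 CPM) and HSPA4 (91.8 ± 18.9 to 189.8 ± 3.18 CPM) were raised, and HSP90AA1 rose by less than the limit (0.85). HSPA4 lay under the limit with size factors (0.93). Among 12 genes of metallothioneins and zinc transport, the metal-sensing factor MTF1 was raised (25.5 ± 3.81 to 65.7 ± 3.53 CPM), and 5 were higher and 0 lower without the fold limit.

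Genes of sterol and fatty acid synthesis gave the most one-sided fall of the 41 lists by the share of members called. Of 30, 0 were raised and 12 lowered, and 0 were higher and 25 lower without the fold limit, beside 5.79% and 21.8% of all tested genes. The median was -0.74, and -0.86 with size factors. SREBF1, which encodes the transcription factor SREBP-1, stood at 278, 350 and 327 CPM with DMSO and 106, 114 and 139 CPM with AAI (log2 -1.40, SE 0.13, adjusted p 3.5e-05). INSIG1, which holds that factor in the endoplasmic reticulum and is also its target, stood at 167, 160.1 and 151 CPM and 57.6, 53.3 and 64.1 CPM (log2 -1.44, SE 0.11, adjusted p 1.0e-05). In both genes the AAI libraries lay well under the DMSO libraries. Enzymes along the sterol pathway were lowered from its first steps to its last, HMGCS1 (145 ± 30.2 to 67.8 ± 20.8 CPM), MVK (-1.01), FDFT1 (174 ± 12.3 to 66.3 ± 12.3 CPM), SQLE (-1.19), MSMO1 (-1.18), HSD17B7 (-1.01) and DHCR7 (-1.09). The desaturase FADS1 was lowered like SCD (167 ± 10.8 to 71.7 ± 11.4 CPM), and the fatty acid synthase FASN fell by less than the fold limit (1478 ± 194 to 877 ± 108 CPM, -0.75). Under every alternative tried, 10 to 13 members were lowered. The lists were drawn up with earlier results of these data known, so the rank of this list among the 41 is not independent evidence.

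**Figure D3:**
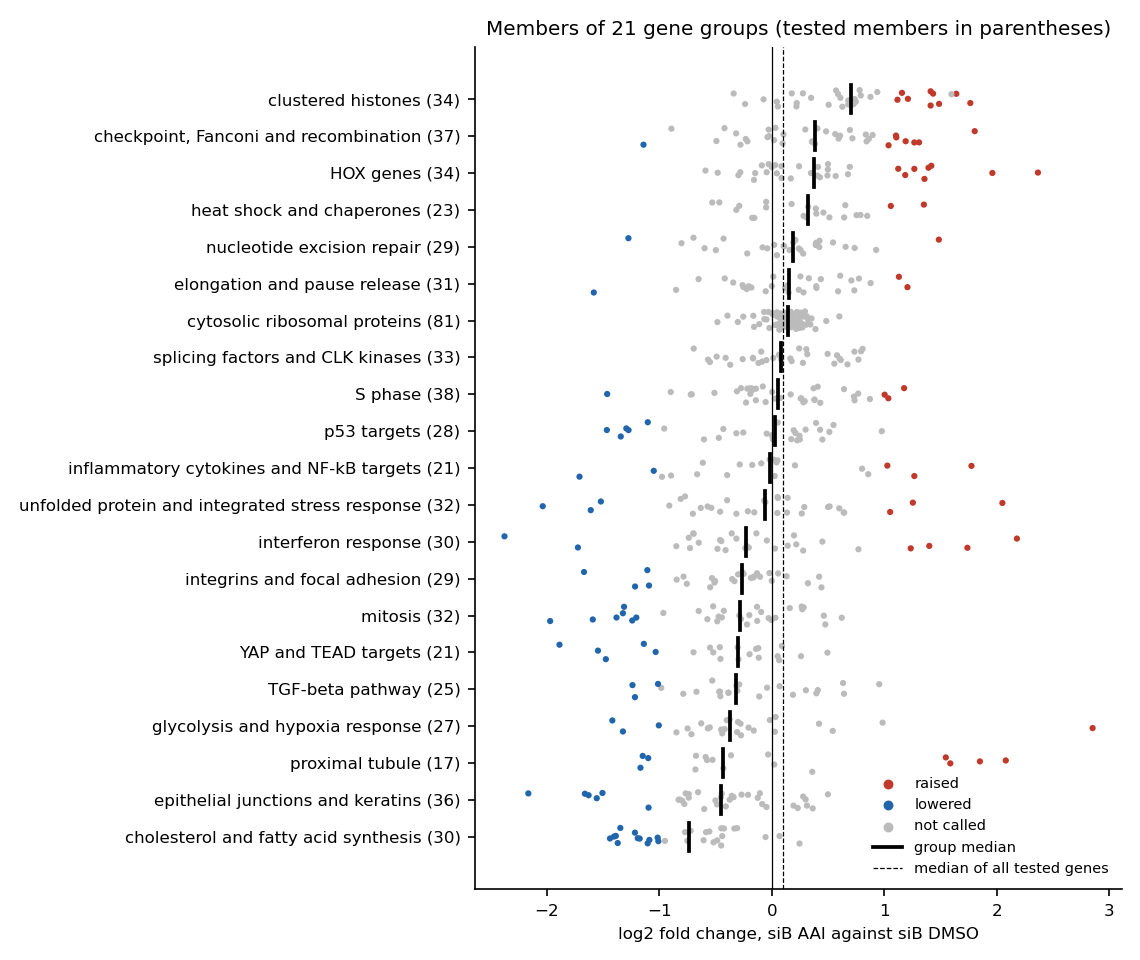
Each point is a tested member of 1 of 21 gene groups, placed by its log2 fold change in siB AAI against siB DMSO, with called members in colour, a thick bar at the group median and a dashed line at the median of all tested genes (0.10). Clustered histones have the highest median (0.70) and cholesterol and fatty acid synthesis genes the lowest (-0.74).

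Glycolysis and hypoxia genes were more often lower than higher. Of 27, 16 were lower and 3 higher without the fold limit, beside 21.8% and 30.4% of all tested genes. By the full rule 3 were lowered and 1 raised, beside 5.79% and 13.9%. The 16 became 8 in the fit over all 4 groups. The glucose transporter SLC2A1, which encodes GLUT1, was lowered from 411, 511 and 509 CPM to 143, 207 and 229 CPM (log2 -1.32, SE 0.17, adjusted p 2.3e-04), NDRG1 from 248 ± 28.8 to 92.6 ± 16.5 CPM and the mitophagy receptor BNIP3L from 84.8 ± 14.6 to 42.1 ± 10.3 CPM. The raised gene was ALDOC, the brain aldolase, from 1.496, 1.31 and 2.12 CPM to 22.5, 15.97 and 15.97 CPM, and it began 617 bp past the end of SPAG5 on the same strand. Of 27 genes of fatty acid oxidation and peroxisomes, 2 were lowered, near the 5.79% of all tested genes. They were the isomerase ECI1 (78.8 ± 7.002 to 24.7 ± 2.55 CPM) and PPARGC1A, the co-activator PGC-1α that drives mitochondrial genes in the tubule (23.2, 14.2 and 13.6 CPM, then 4.86, 3.92 and 4.29 CPM). Of 22 genes of branched-chain amino acid breakdown 2 were lowered, beside 5.79% of all tested genes. They were the subunit BCKDHB (16.4 ± 3.15 to 6.15 ± 1.28 CPM) of the rate-limiting dehydrogenase and BCKDK, the kinase that inhibits it (148 ± 13.7 to 48.1 ± 6.11 CPM). Among 28 autophagy and lysosome genes 2 were lowered, near the 5.79% of all tested genes. They were WIPI1 (10.7 ± 0.4601 to 4.49 ± 0.299 CPM) and the sialidase NEU1 (298 ± 15.8 to 143 ± 29.8 CPM).

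Genes of the translation and energy machinery stayed within the fold limit. Of 81 cytosolic ribosomal protein genes, 31 proteasome genes, 20 aminoacyl-tRNA synthetase genes and 13 protein-coding genes of the mitochondrial genome, 0 were called, beside 13.9% and 5.79% of all tested genes. The ribosomal protein median was 0.14. Without the fold limit 13 of these genes were higher and 2 lower, beside 30.4% and 21.8% of all tested genes, and 2 were higher with size factors. The mitochondrially encoded median was 0.28, with MT-CO1 at 0.64 the highest. Of 79 tested nuclear-encoded genes of the respiratory chain, a list matched by name that takes in pseudogenes, 1 was raised, the pseudogene ATP5G1P4. Of 32 nucleolar genes, RRN3, the factor that brings RNA polymerase I to its promoters, was raised (42.01 ± 4.298 to 91.1 ± 8.13 CPM, and 0.98 on the log2 scale with size factors).

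HOX genes, which set position along the body axis, and zinc finger genes, many of them transcriptional repressors, had more raised than lowered members, as did the tested genes as a whole. Of 34 tested HOX genes, 8 were raised, 0 lowered and 14 higher without the fold limit, beside 13.9% raised and 30.4% higher of all tested genes. The 8 became 5 among genes with a mean of at least 5 CPM, and 5 without siB AAI replicate 1, 2 or 3. The 14 became 9 without a filter or without siB DMSO replicate 3, and 7 without AAI replicate 1 or 3. A gene near 0 with DMSO could pass the filter through its AAI libraries alone. HOXA2 went from 1.69 ± 0.423 to 13.1 ± 3.64 CPM, HOXB5 from 7.35 ± 0.383 to 21.2 ± 4.16 CPM, HOXD3 from 5.13 ± 0.914 to 14.6 ± 0.574 CPM and HOXB3 from 9.18 ± 0.7103 to 23.9 ± 5.80 CPM. The HOX genes of a cluster share a strand and lie close together. HOXA9 (-0.30) and HOXA10 (-0.48), among the more abundant members, did not rise. Of 483 tested ZNF genes 90 were raised and 12 lowered, beside 13.9% and 5.79% of all tested genes, with a median of 0.44. Without the fold limit 222 were higher and 46 lower, beside 30.4% and 21.8%. ZNF513 (2.55), ZNF862 (2.20), ZNF425 (2.19) and ZNF34 (2.12) rose the most among those with a mean of at least 5 CPM.

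The same comparison in SCR cells called fewer genes, 1100 raised (7.73% of 14228 tested) and 389 lowered (2.73%), and gave the same direction for nearly all genes called in siB cells. Of the 2080 genes raised in siB cells, 871 (41.9%, and 79.2% of those raised in SCR cells) were also raised in SCR cells, 462 were not tested there and 0 were lowered. Of the 864 lowered genes, 282 (32.6%, and 72.5% of those lowered in SCR cells) were also lowered and 0 were raised. These SCR counts come from a fit without pairing. With the replicate number as a block, 1378 genes were raised and 539 lowered in SCR cells. Of these, 1015 and 370 were also raised and lowered in siB cells. Among raised genes tested in both, 98.6% of 1618 had a positive log2 fold change in SCR cells, with medians of 1.57 in siB and 1.24 in SCR cells. Among lowered genes tested in both, 96.3% of 854 had a negative one, with medians of -1.25 and -0.93. The siB genes were chosen for large changes in siB libraries, so smaller SCR medians are no test of a difference. Depth differed most in the SCR DMSO group, where replicate 2, the deepest library of the series, held 42805294 reads.

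**Figure D4:**
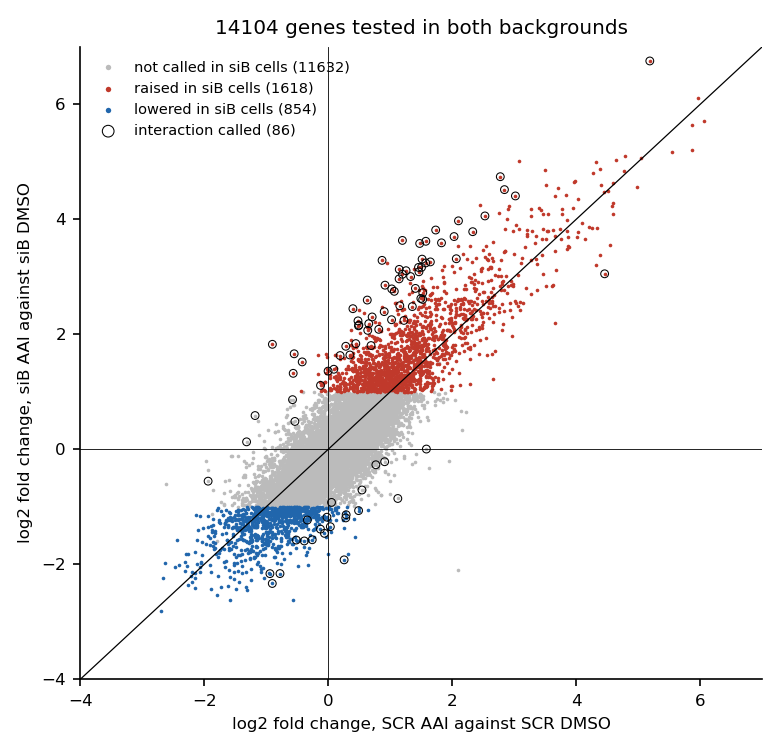
Each point is 1 of 14104 genes tested in both backgrounds, with its log2 fold change for AAI against DMSO in SCR cells on the horizontal axis and in siB cells on the vertical axis, coloured by its call in siB cells, and the diagonal marking equal changes. Rings mark the 86 of these genes with a called interaction.

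The difference between the responses was tested as the interaction of siRNA and AAI over all 12 libraries. It was called for 247 of 15325 genes (1.61%), or 389 with the replicate number as a block, at an adjusted p under 0.05. Of the 247, 223 had a higher and 24 a lower log2 change in siB cells, and 2032 genes had an unadjusted p under 0.05. In siB cells 216 of them were raised and 15 lowered, 203 had a mean under 5 CPM over the 12 libraries, 109 were at 3 reads or fewer in every siB DMSO library and 159 were too low to be tested in SCR cells. The part of low level in the count was not tested. In limma the count was 0 among genes with a mean of at least 5 CPM fitted by themselves, where 1125 had an unadjusted p under 0.05. It was also 0 with voom on the recovered reads, where 1548 had. The count was 8 without siB AAI replicate 1 or 3, and 1010 without SCR DMSO replicate 2.

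Within these limits, several genes of the groups above had an interaction in the fit over all 12 libraries. RRM2 changed by -1.46 in siB and -0.06 in SCR cells (interaction -1.40, SE 0.24, adjusted p 0.0163), CDKN1C by -1.14 and 0.29 (-1.43, SE 0.31, adjusted p 0.0390), and CLDN2 by -2.17 and -0.94 (-1.22, SE 0.27, adjusted p 0.0452). MDC1 rose by 1.8 in siB and changed by 0.69 in SCR cells (1.11, SE 0.22, adjusted p 0.0283), and ABCC2 by 3.24 and 1.57 (1.67, SE 0.27, adjusted p 0.0115). CEBPA, a differentiation factor, had the second largest negative interaction among genes with a mean of at least 5 CPM (-1.98, SE 0.33, adjusted p 0.0135), with 38.3 ± 4.12 to 20.7 ± 2.65 CPM in siB cells and 15.6 ± 2.31 to 36.1 ± 11.2 CPM in SCR cells, after RASSF10 (-2.18, SE 0.28, adjusted p 0.00428), which fell from 15.3, 13.9 and 14.4 CPM to 2.08, 3.83 and 3.59 CPM in siB cells. Among the largest positive ones was GRAMD2 (now GRAMD2A), which reached 35.5, 14.6 and 18.4 CPM with AAI in siB cells, replicate 1 the highest. Several genes with a wider gap between the backgrounds than most were not called for the interaction. Examples are HBEGF (2.08 in siB, 0.37 in SCR cells, interaction adjusted p 0.121), IL18 (-1.71 and -0.40, 0.179), DDIT4 (-2.04 and -0.49, 0.0511), SREBF1 (-1.40 and -0.25, 0.0511) and TRIB3 (-1.52 and -0.23, 0.389). For the list of sterol and fatty acid synthesis genes the medians were -0.74 in siB and -0.53 in SCR cells, for mitosis -0.28 and -0.24, and for junctions and keratins -0.45 and -0.46.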

How the data were processed

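The 12 RNA sequencing libraries were compared from 1 gene table. As deposited, the authors had aligned the reads to hg38 and, with BioJupies, turned gene counts into log10 of CPM plus 1. CPM were recovered from these values, and 99.9993% of them were whole reads within 0.02 of a read. Of the gene names, 28 had been turned into dates and name no gene. No column was without a sample (0).

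For siB AAI against siB DMSO, log2(CPM + 1) of genes with at least 1 CPM in at least 3 libraries was fitted with limma 3.58.1 (trended variance, R 4.3.3) and p-values were Benjamini-Hochberg adjusted over all tested genes. Raised or lowered means an adjusted p under 0.05 and at least a 2-fold change on that scale, which understates changes of low genes. SCR cells were fitted alike, and the interaction over all 12 libraries. The fit was tested on simulated data. Deviations from the group means of same-numbered SCR libraries correlated at 0.43, 0.49 and 0.35, so these numbers were taken to pair the SCR libraries, from the data and not the labels, and a blocked SCR fit was added after seeing the data. Nothing says that the 3 libraries of a group came from separate cultures, so p-values measure the spread between these samples, which may be technical. Floors are 3 reads and cover counting error only, since reads carry no molecular identifiers. Spans, neighbours and overlaps come from GENCODE 44 and promoters from RefSeq.

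The members of the gene lists were chosen with earlier results of these data known. Named genes were the genes the study followed, the 10 largest changes in each direction (mean of at least 5 CPM, no overlap), up to 4 called members each way per list, the 5 most abundant called genes each way, up to 5 called genes at 3 reads or fewer in every siB DMSO library, and the 5 largest interactions in each direction. Some genes that this rule picks are not reported here. Other genes named were chosen after their values were seen. Results were recomputed without the filter, among genes with a mean of at least 5 CPM, and with a pseudocount of 0.1, median-ratio size factors, voom on the recovered reads, no variance trend, a replicate block, all 4 groups in 1 fit, no fold limit and leaving out each library.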

Additional observations from a re-analysis of the deposited data

Results flagged for a closer look

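The interaction of siRNA and AAI, a test of whether the log2 change with AAI differed between siB and SCR cells, was called for 247 genes. Among genes of the lists and of the largest changes it was 1.57 in CHD5, 1.11 in MDC1, 1.67 in ABCC2 and 1.53 in ZNF425, which changed more upwards in siB cells, and -1.40 in RRM2, -1.43 in CDKN1C and -1.22 in CLDN2. Among genes with a mean of at least 5 CPM over the 12 libraries the largest positive interactions were 2.44 in an unnamed transcript of an RP11 clone, 2.42 in GRAMD2, 2.21 in TLL2, 2.11 in MYH15 and 1.97 in SELPLG. The largest negative ones were -2.18 in RASSF10, -1.98 in CEBPA, -1.58 in RILP, -1.56 in GPR162 and -1.48 in TRMO. None of the genes passed this test with voom on the recovered reads, or among genes with a mean of at least 5 CPM fitted by themselves.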

How the results depend on the processing

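Of 3070 values recomputed for 155 named genes, 2946 kept their direction and their side of the threshold, 109 kept the direction only and 15 reversed, and 127 genes kept both under every alternative. Without a fold limit 4535 genes were higher and 3259 lower. With a mean of at least 5 CPM 882 were raised. Leaving out 1 library gave 965 to 2420 raised genes, the lowest without siB AAI replicate 1, 2 or 3 (965, 1185 and 1210), where the filter removed many low genes. Among genes tested with all libraries these became 1887, 2179 and 2229. The replicate block gave 2083 raised and 867 lowered genes and 389 interactions. Same-numbered siB libraries deviated together with correlations of 0.22, 0.03 and 0.21, so the numbers were not taken to pair them. A replicate block in the SCR fit, added after seeing the data, gave 1378 raised and 539 lowered genes, of which 1015 and 370 were also raised and lowered in siB cells. The 247 interactions became 46 with a pseudocount of 0.1, 625 without a filter, 0 with a mean of at least 5 CPM and 0 with voom, where the cause was not tested. They ranged from 8 (without siB AAI replicate 1 or 3) to 1010 (without SCR DMSO replicate 2). Among genes tested with all libraries they were 115 without SCR DMSO replicate 1, 1010 without replicate 2 and 115 without replicate 3, 135 and 103 without SCR AAI replicates 2 and 3, and 96, 82 and 81 without siB DMSO replicates 1, 2 and 3. CDKN1A, at 0.00, ranged from -0.081 to 0.070 with single libraries left out, with 0.038 without siB DMSO replicate 2, 0.038 without DMSO replicate 3 and 0.070 without AAI replicate 2. IL6 ranged from -0.86 to 0.49, the latter without AAI replicate 1. RILP, at 0.0033, ranged from -0.11 to 0.15, with -0.11 under size factors and without DMSO replicate 1, -0.033 without DMSO replicate 2 and -0.066 without AAI replicate 3. Reads of 15844015 in the shallowest library limit a count of 0 to a level of up to 0.189 CPM.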
